A study of Mus musculus with 4 samples.

Results

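The genes described here are 10 genes of the YAP pathway in mouse: the transcriptional coactivator genes Yap1 and Wwtr1, the DNA-binding partner gene Tead1, and the known targets and regulators Ccn1, Ccn2, Ankrd1, Amotl2, Lats2, Ajuba and Crim1. They were found in the gene count table by matching its Ensembl identifiers to these symbols, and all 10 were present among 39056 genes; Ccn1 and Ccn2 are also known as Cyr61 and Ctgf. Polyadenylated RNA was sequenced in 4 libraries, 1 each for the labels no LPS, 8 h, 16 h and 20 h of LPS (lipopolysaccharide, a bacterial endotoxin) given into the peritoneum at 10 mg/kg. The labels describe lung endothelial cells of S1PR1-GFP reporter mice, in which green fluorescent protein marks cells that express the sphingosine-1-phosphate receptor S1PR1, sorted as positive for the reporter and CD31 and negative for CD45. All 4 libraries carry the same reporter and gate, and the labels do not give the animals' age or sex, or say whether a library came from 1 mouse or several.

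YAP (from Yap1) and TAZ (from Wwtr1) do not bind DNA themselves. They enter the nucleus and switch on genes by binding TEAD transcription factors, and the kinases of the Hippo cascade, ending with LATS1 and LATS2, phosphorylate them so that they are kept in the cytoplasm or degraded. Stretched or well-spread cells, and many receptors that act through G proteins, favour nuclear YAP and TAZ, and in endothelium both are known for roles in vessel growth and cell junctions. Several targets feed back on the pathway: LATS2 and AMOTL2 restrain YAP and TAZ.

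The libraries were even in depth, with totals between 27566454 and 28905776 reads, and levels are given as CPM, reads divided by the scaled library total. The 11803 genes at 1 CPM or more somewhere among the 4 libraries are the measured genes below. The labelled cell type was not borne out by its defining transcripts. Of 11 endothelial marker genes 2 were measured, Flt1 and Egfl7, while Emcn, Cldn5 and Erg stayed at 0 reads throughout, where a count of 0 allows up to 0.108 CPM at the smallest depth (3 reads). Pecam1, which encodes CD31, had 7 reads with no LPS and then 2, 2 and 1 at 8, 16 and 20 h. Ptprc, which encodes CD45, had more reads than Pecam1 in each library, with 42, 37, 31 and 38 in the same order. Of 12 fibroblast and mesenchymal genes 6 were measured, among them Vim at 2358 to 2871 CPM and Prrx1 at 209 to 213 CPM, while Col1a1 had at most 4 reads in a library, Col1a2 and Thy1 at most 1 and Tcf21 had 0. Each time given below therefore names a library by its label and no more. In such bulk RNA, fewer cells of a type and less RNA per cell cannot be told apart. With 1 library per label no difference between labels had a replicate check, and calling a gene "higher" or "lower" rests on size alone: a fold of 2 or more between scaled levels, with a 95% counting interval on 1 side of 1 and a level of 1 CPM or more in the higher library. The intervals cover counting error only.

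Short stretches of the members' promoters show the letters that TEAD proteins are known to bind. The TEAD core GGAATG was searched on both strands (CATTCC when read on the opposite strand) in RefSeq promoter windows of 300 bases, from 250 bases before to 50 after a transcription start (GRCm38.p6, the assembly of the mm10 build). Windows were held for 8 of the 10 members, and none for Ccn2 or Tead1. All 8 members contained the core in at least 1 window, and 9 of their 10 windows did, whereas 14.7% of all 32817 promoter windows held it. The members were chosen as known TEAD partners and targets, and a match of letters is a description, not a binding site. The 30 bases around each of the 10 distinct matches are given 5′ to 3′ on the strand of the gene, with the core in capitals, so that the flanks of the strongly differing targets can be set beside those of genes that differed little.
Ccn1, chr3:145650071-145650100, minus strand: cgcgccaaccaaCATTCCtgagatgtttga
Ankrd1, chr19:36120037-36120066, minus strand: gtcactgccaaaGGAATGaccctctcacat
Ankrd1, chr19:36119950-36119979, minus strand: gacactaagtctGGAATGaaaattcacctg
Ajuba, chr14:54577830-54577859, minus strand: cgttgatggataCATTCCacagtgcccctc
Ajuba, chr14:54577808-54577837, minus strand: tgcccctccgcgCATTCCaactgtaaacaa
Amotl2, chr9:102717727-102717756, plus strand: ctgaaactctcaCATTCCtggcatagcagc
Lats2, chr14:57746102-57746131, minus strand: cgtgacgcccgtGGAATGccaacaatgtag
Crim1, chr17:78200157-78200186, plus strand: agggcgggggggGGAATGaggtaggatggg
Yap1, chr9:8004720-8004749, minus strand: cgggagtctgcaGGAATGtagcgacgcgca
Wwtr1, chr3:57576029-57576058, minus strand: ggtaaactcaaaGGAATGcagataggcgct

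The core of Ccn1 began 103 bases before the start, that of Amotl2 65 bases before it and that of Crim1 79 bases before it. Ankrd1 and Ajuba each held a pair, at 210 and 123 bases and at 186 and 164 bases before the start. A pair or more was found in 1.36% of all windows. The Yap1 core lay 141 bases before the start, and the single Wwtr1 core 170 or 136 bases before it, depending on which of 2 annotated starts is used. In Lats2 the core followed 1 of its 2 starts, and the window of the other start held none. The core was therefore present in front of Ccn1 and Ankrd1, which were higher at 8 h and 16 h, and in front of genes whose levels stayed close. A second motif, the AP-1 letters TGANTCA, was found in 0 of these 8 members' windows and in 7.81% of all windows. To show the wider setting of a single and of a paired core, the 250 bases before the start are given for Ccn1 and Ajuba, whose windows overlap no annotated exon; that of Ankrd1 lies within an exon of a GENCODE transcript that starts further out, so only its 30-base sites are shown.
Ccn1, chr3:145649986-145650235, minus strand: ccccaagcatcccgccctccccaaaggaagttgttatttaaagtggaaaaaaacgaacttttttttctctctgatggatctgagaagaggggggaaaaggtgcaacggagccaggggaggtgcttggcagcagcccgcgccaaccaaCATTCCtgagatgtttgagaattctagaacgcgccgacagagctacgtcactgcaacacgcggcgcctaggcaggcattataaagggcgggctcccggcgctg
Ajuba, chr14:54577662-54577911, minus strand: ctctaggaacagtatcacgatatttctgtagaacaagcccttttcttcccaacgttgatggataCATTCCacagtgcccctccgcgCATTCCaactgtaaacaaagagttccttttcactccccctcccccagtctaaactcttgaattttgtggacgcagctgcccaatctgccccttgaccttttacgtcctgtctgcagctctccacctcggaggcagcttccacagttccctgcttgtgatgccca

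**Figure D1:**
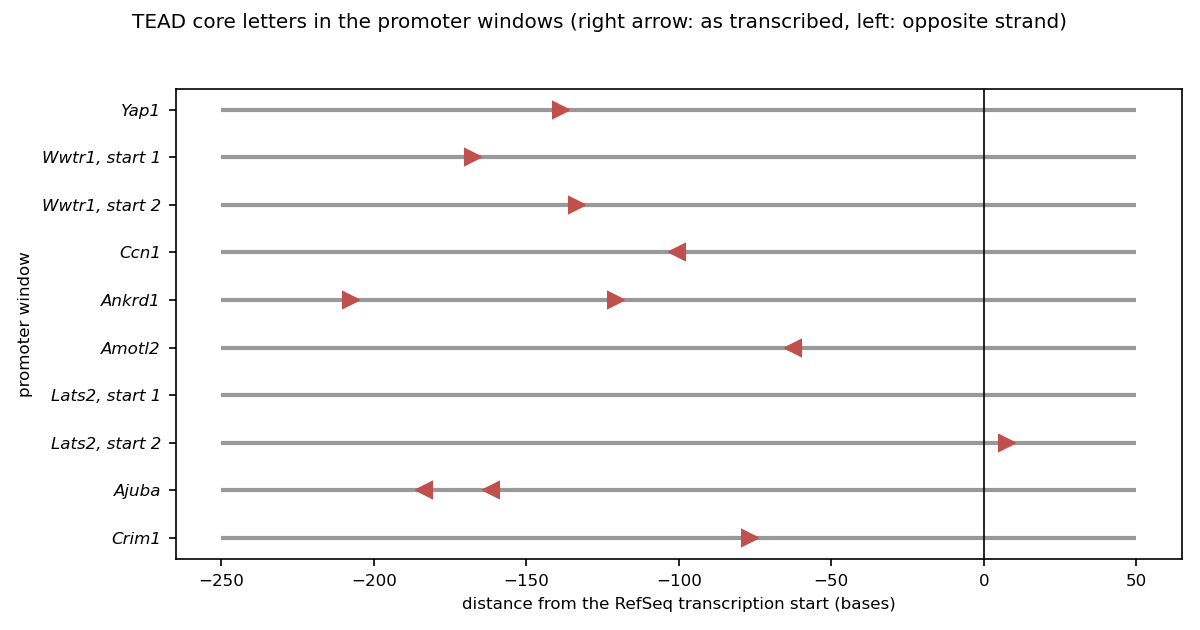
Matches to the TEAD core in the 10 promoter windows of 8 member genes, on a horizontal axis of distance in bases from the RefSeq transcription start; each grey line is 1 window and each triangle 1 match, pointing right where it reads as transcribed and left where it lies on the opposite strand. In 9 of the 10 windows there is at least 1 match, and Ankrd1 and Ajuba have 2 each.

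The coactivator genes were expressed steadily. Yap1 (chromosome 9, 7931999 to 8004596, minus strand) had 205 CPM with no LPS, 180 CPM at 8 h, 187 CPM at 16 h and 199 CPM at 20 h. Its lowest level was at 8 h, where the fold against no LPS was 0.875 (95% counting interval 0.842 to 0.908); the fold was 0.909 at 16 h (0.876 to 0.944) and 0.969 at 20 h (0.934 to 1.01). All 3 LPS libraries lay below no LPS, that of 20 h by less than counting error. Wwtr1, the gene for TAZ (chromosome 3, 57455649 to 57575910, minus strand), stood at 129 CPM with no LPS, 144 CPM at 8 h, 143 CPM at 16 h and 139 CPM at 20 h. All 3 LPS libraries lay above no LPS, by 1.11-fold (1.06 to 1.16), 1.11-fold (1.06 to 1.16) and 1.08-fold (1.03 to 1.13). The paralogues thus lay on opposite sides of 1 at 8 h and 16 h, by at most 12.5% for Yap1 and 11.2% for Wwtr1, and neither met the rule of size.

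Tead1, which encodes a TEAD factor that brings YAP and TAZ to DNA (chromosome 7, 112679318 to 112906807, plus strand), was the most abundant member in reads, at 458 CPM with no LPS, 489 CPM at 8 h, 479 CPM at 16 h and 445 CPM at 20 h. Its folds against no LPS were 1.07 (1.04 to 1.09), 1.04 (1.02 to 1.07) and 0.970 (0.946 to 0.994). The whole range of Tead1 over the 4 libraries was 1.10-fold.

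The classical targets differed most. Ccn2 encodes a secreted matricellular protein better known as connective tissue growth factor (chromosome 10, 24595442 to 24598683, plus strand). The no-LPS library held 32 of its reads and the LPS libraries 191, 185 and 46 in the order of hours, which are 1.13, 6.65, 6.68 and 1.66 CPM. The 8 h and 16 h libraries were alike and stood apart from the other two. The fold was 5.88 at 8 h (4.03 to 8.83) and 5.90 at 16 h (4.04 to 8.87), and at 20 h it was 1.47 with an interval that included 1 (0.914 to 2.38).

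Ankrd1 encodes a nuclear ankyrin repeat protein (chromosome 19, 36111961 to 36120099, minus strand). Its counts were 87 reads with no LPS and 511, 445 and 89 reads at 8, 16 and 20 h, or 3.08, 17.8, 16.1 and 3.21 CPM. The 20 h library lay at the no-LPS level and the 8 h and 16 h libraries well above it. The fold was 5.78 at 8 h (4.60 to 7.34), 5.22 at 16 h (4.14 to 6.64) and 1.04 at 20 h (0.768 to 1.42).

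Ccn1, a secreted matricellular protein gene of the same family as Ccn2 (chromosome 3, 145646976 to 145649981, minus strand), had a far higher level and a smaller fold. Its levels were 37.8 CPM with no LPS, 82.1 CPM at 8 h, 81.2 CPM at 16 h and 41.7 CPM at 20 h. The same division of the libraries appeared, with 2.17-fold at 8 h (2.02 to 2.33) and 2.15-fold at 16 h (1.99 to 2.31), close to the threshold of 2. At 20 h the fold was 1.10 (1.01 to 1.20).

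**Figure D2:**
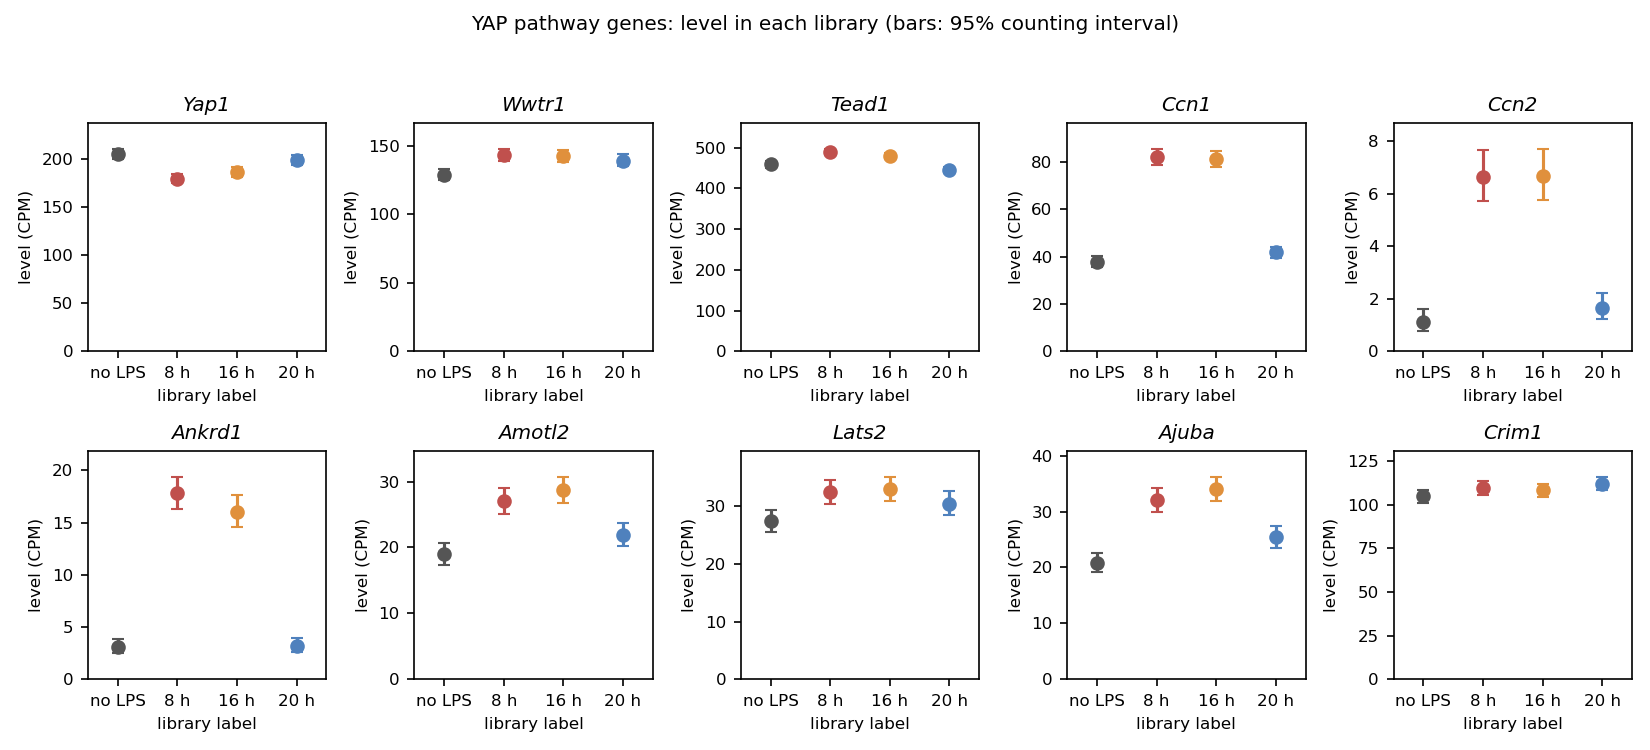
Level of each of the 10 genes in CPM (vertical axes, starting at 0) by library label, from no LPS to 20 h; points are the 4 single libraries and bars the 95% counting interval. Ccn1, Ccn2 and Ankrd1 are high at 8 h and 16 h and low in the other libraries, Amotl2 and Ajuba show the same order with smaller steps, and Yap1, Wwtr1, Tead1 and Crim1 stay within 1.14-fold.

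The pathway's own regulators among the targets lay between these and the flat genes. Ajuba encodes a LIM-domain scaffold that binds and inhibits LATS kinases (chromosome 14, 54567472 to 54577558, minus strand). It had 20.8 CPM with no LPS, 32.0 CPM at 8 h, 34.0 CPM at 16 h and 25.4 CPM at 20 h, so that every LPS library lay above no LPS. The folds were 1.54 (1.39 to 1.71), 1.63 (1.47 to 1.81) and 1.22 (1.09 to 1.36). Amotl2, which encodes an angiomotin that binds YAP at junctions (chromosome 9, 102716672 to 102733418, plus strand), had 18.9 CPM with no LPS, 27.0 CPM at 8 h, 28.7 CPM at 16 h and 21.8 CPM at 20 h. Its folds were 1.43 (1.28 to 1.60), 1.52 (1.36 to 1.69) and 1.15 (1.03 to 1.30), the last of these at 20 h. Lats2, which encodes a kinase that phosphorylates YAP and TAZ (chromosome 14, 57689662 to 57758388, minus strand), had 27.4 CPM with no LPS, 32.5 CPM at 8 h, 33.0 CPM at 16 h and 30.5 CPM at 20 h. The folds of Lats2 were small, at 1.18 (1.08 to 1.30), 1.20 (1.09 to 1.33) and 1.11 (1.01 to 1.23). None of Ajuba, Amotl2 and Lats2 met the rule of size.

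Crim1, which encodes a transmembrane protein with cysteine-rich repeats that binds bone morphogenetic proteins (chromosome 17, 78200248 to 78376592, plus strand), was the flattest of the 10. It had 105 CPM with no LPS, 110 CPM at 8 h, 108 CPM at 16 h and 112 CPM at 20 h, a range of 1.07-fold. Its intervals included 1 at 8 h (0.994 to 1.10) and 16 h (0.981 to 1.09), and its fold of 1.07 at 20 h did not (1.02 to 1.13).

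In all, 3 of the 10 members were higher and none lower at 8 h, where 4.19% of measured genes were higher and 4.13% lower. At 16 h the same 3 members, Ccn1, Ccn2 and Ankrd1, were higher, against 4.13% of measured genes, and none was lower, against 4.09%. At 20 h none was called in either direction, against 0.652% of measured genes. The median log2 ratio of the 10 was 0.38 at 8 h, 0.43 at 16 h and 0.13 at 20 h, and the median of all measured genes was 0.00, 0.01 and 0.00. Counting error alone was exceeded far more often, since 8 members had an interval above 1 at 8 h and 8 at 16 h, where 35.4% and 35.8% of all measured genes did. Yap1 alone had an interval below 1 at each of these times, against 34.8% and 35.1% of measured genes. At 20 h, 6 members had an interval above 1, against 14.7% of measured genes, and 1, Tead1, had one below 1, against 11.9%. The comparisons with no LPS share that library, so a low or high value in it enters all of them.

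**Figure D3:**
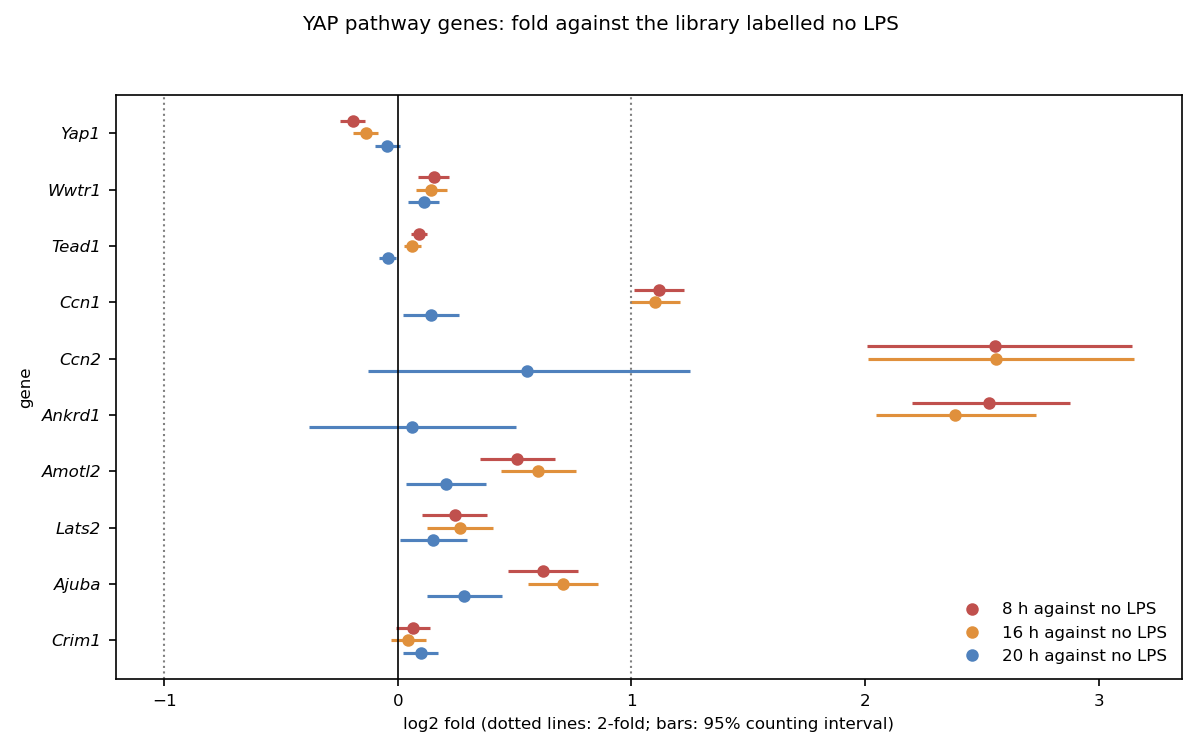
Log2 fold of the 10 genes (rows) in the libraries labelled 8 h, 16 h and 20 h against no LPS, with 95% counting intervals as bars and dotted lines at a fold of 2. Ccn2 and Ankrd1 lie above 5-fold and Ccn1 just above 2-fold at 8 h and 16 h, and every 20 h point lies between 0.969-fold and 1.47-fold.

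Successive LPS labels were compared as well. In the 16 h library against the 8 h library no member was called, where 0.237% of measured genes were called in either direction. The folds of the 10 members lay between 0.902 for Ankrd1 (0.793 to 1.03) and 1.06 for Amotl2 (0.962 to 1.17). The 8 h and 16 h libraries were close overall: over 11733 genes with enough reads, the squared difference in units of counting error averaged 1.63, where counting error alone gives a value of about 1. The same measure was 7.38 between the 20 h and no-LPS libraries and 75.4 between the 8 h and no-LPS libraries. Whether the 8 h and 16 h libraries came from separate animals is not stated in the labels.

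In the 20 h library 2 members were lower than at 16 h, against 3.85% of measured genes, and none was higher, against 4.63%. Ankrd1 was at 3.21 CPM at 20 h and 16.1 CPM at 16 h, a fold of 0.200 (0.158 to 0.252), and Ccn2 was at 1.66 CPM and 6.68 CPM, a fold of 0.249 (0.176 to 0.345). Ccn1 was at 41.7 CPM at 20 h and 81.2 CPM at 16 h, a fold of 0.514 (0.479 to 0.552) that narrowly missed the threshold. Ajuba at 0.746-fold (0.676 to 0.823), Amotl2 at 0.761-fold (0.684 to 0.847) and Tead1 at 0.929-fold (0.906 to 0.952) make up, with Ankrd1, Ccn2 and Ccn1, the 6 members with an interval below 1, against 34.7% of measured genes. Yap1, at 1.07-fold (1.03 to 1.11), was the 1 member with an interval above 1, against 36.6%. A straight line over hours was fitted in edgeR with the quasi-likelihood test on all 4 libraries, leaving 2 residual degrees of freedom. It called none of the 10 members, with unadjusted p from 0.392 to 0.829 and an adjusted p of 0.9999 for each. It called 0 of 11803 genes, of which 43 had an unadjusted p under 0.05, and DESeq2's Wald test called 0, with 25 under 0.05. The 43 became 18 without the 8 h library, 24 without 16 h, 540 without no LPS and 2110 without 20 h, with 0 genes called each time. A line cannot follow levels that are high at 8 h and 16 h and low at 20 h.

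Levels between genes were compared per kilobase of annotated exon. Without LPS, Tead1 came first at 33.8 reads per kilobase on the CPM scale, followed by Wwtr1 at 27.0, Yap1 at 22.2, Ccn1 at 18.7 and Crim1 at 17.5. Ajuba at 5.72, Lats2 at 3.93, Amotl2 at 3.01, Ankrd1 at 1.07 and Ccn2 at 0.396 followed. In the 8 h library Ccn1 took the first place, at 40.6 on the same scale, above Tead1 at 36.0, and Ankrd1, at 6.17, stood above Lats2 at 4.66 and Amotl2 at 4.29. By the mean over the libraries Tead1 lay above 87.9% of measured genes on this scale and Ccn2 above 17.3%. Ccn2 and Ankrd1 thus combined the largest folds with the lowest levels, so their intervals were the widest. Exon length is the union of all annotated exons, and reads that concentrate on 1 isoform would shift these ranks.

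Overlapping annotation touches some members. Lats2 shares 2955 exon bases on its own strand with Gm49361, which has no entry in the gene count table. Whether that overlap touched the Lats2 counts was not tested. Crim1 shares 123 exon bases with Fez2 on the opposite strand, Ccn2 shares 665 with Gm15270, and Yap1 shares 116 with Gm20416. How the counting treated strand is not stated in these sources. Gm15270 had at most 2 reads and Gm20416 had 0 in every library, and Fez2 had between 1259 and 2221.

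The rest of the pathway was described from fixed lists. Among 10 genes for coactivators, TEAD factors and the TEAD-binding VGLL proteins, 7 were measured and none was called in any of the 5 comparisons. Their median log2 ratio was 0.19 at 8 h and 0.20 at 16 h. Tead2, which was singled out after its values were seen, had 50.1 CPM with no LPS, 73.9 CPM at 8 h, 74.1 CPM at 16 h and 54.0 CPM at 20 h. Its folds of 1.48 at 8 h (1.38 to 1.58) and 1.48 at 16 h (1.38 to 1.58) were the largest among the 7 measured genes, and Tead1 itself had 1.07 and 1.04.

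Of 11 genes of the kinase cascade all were measured and none was called in any comparison, with medians of -0.06 at 8 h and -0.10 at 16 h. The abundant members were steady. Map4k4, an upstream kinase gene, had a fold of 0.904 at 8 h (0.886 to 0.923), Mob1a, which encodes a LATS activator, 1.03 (1.004 to 1.05), and Taok1, another upstream kinase gene, 0.961 (0.928 to 0.994). Lats1 and Mob1b, singled out after their values were seen, went the other way from Lats2. Lats1 had 163 CPM with no LPS, 109 CPM at 8 h, 109 CPM at 16 h and 157 CPM at 20 h, so that its fold was 0.669 at 8 h (0.639 to 0.700) while that of its paralogue Lats2 was 1.18. Mob1b had 123 CPM with no LPS, 87.0 CPM at 8 h, 84.0 CPM at 16 h and 121 CPM at 20 h, with a fold of 0.708 at 8 h (0.672 to 0.746). Both had the same division of libraries as Ccn1, in the opposite direction, at less than 2-fold.

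Of 13 upstream regulators and adaptors 11 were measured; none was called against no LPS and 1 was called at 20 h against 16 h. That was Dchs1, which encodes a protocadherin ligand of the FAT4 receptor, with 3.18 CPM with no LPS, 1.64 CPM at 8 h, 1.66 CPM at 16 h and 3.79 CPM at 20 h, and a fold of 2.28 at 20 h against 16 h (1.60 to 3.30). Fat4 itself had at most 1 read in a library. The list's median was 0.26 at 8 h and 0.22 at 16 h. Amotl1, an angiomotin gene like Amotl2, had a fold of 1.19 at 8 h (1.16 to 1.23), Nf2, which encodes the junctional Hippo activator merlin, 1.14 (1.09 to 1.19), and Ptpn14, a phosphatase gene whose product binds YAP, 0.889 (0.860 to 0.918). Frmd6, which encodes a FERM-domain protein placed upstream of the Hippo kinases and was chosen after its values were seen, came nearest to the threshold on the higher side, as Dchs1 did on the lower side at 0.514-fold at 8 h (0.353 to 0.740). Frmd6 had 44.1 CPM with no LPS, 83.1 CPM at 8 h, 78.9 CPM at 16 h and 46.4 CPM at 20 h, a fold of 1.88 at 8 h (1.76 to 2.02).

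The published list of 22 YAP and TAZ targets holds 6 of the 10 members, and of its 16 other genes 14 were measured. Among these 14, 1 was higher and none lower at 8 h and at 16 h, where 4.19% and 4.13% of measured genes were higher, and none was called at 20 h against no LPS. The higher gene was Axl, which encodes a receptor tyrosine kinase for the ligand GAS6. Axl had 238 CPM with no LPS, 586 CPM at 8 h, 575 CPM at 16 h and 232 CPM at 20 h, or 2.46-fold at 8 h (2.39 to 2.53), 2.41-fold at 16 h (2.35 to 2.48) and 0.975-fold at 20 h (0.942 to 1.01). The median log2 ratio of the 14 was 0.23 at 8 h, 0.29 at 16 h and 0.02 at 20 h. At 8 h, 8 of them had a counting interval above 1, where 35.4% of all measured genes did, and 2 had one below 1, where 34.8% did. The abundant Myof, a membrane repair gene, had a fold of 1.26 at 8 h (1.23 to 1.28), and Gadd45a, a growth arrest gene, had 0.911 (0.884 to 0.940). The target list was therefore called in part: its largest folds belonged to Ccn2, Ankrd1, Axl and Ccn1, and the others stayed under 2-fold.

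The CCN family of matricellular genes gave the same picture in part. Of 6 genes 4 were measured, and 3 were higher at 8 h and at 16 h, against 4.19% and 4.13% of measured genes. The one outside the members was Ccn4, with 30 reads with no LPS and 68, 68 and 35 reads at 8, 16 and 20 h, and a fold of 2.23 at 8 h (1.43 to 3.55) and 2.31 at 16 h (1.48 to 3.68). Ccn3 had 96 reads with no LPS and 96, 93 and 100 in the LPS libraries by hour, with a fold of 0.984 at 8 h (0.734 to 1.32). Ccn5 had at most 4 reads and Ccn6 had 0 in every library.

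**Figure D4:**
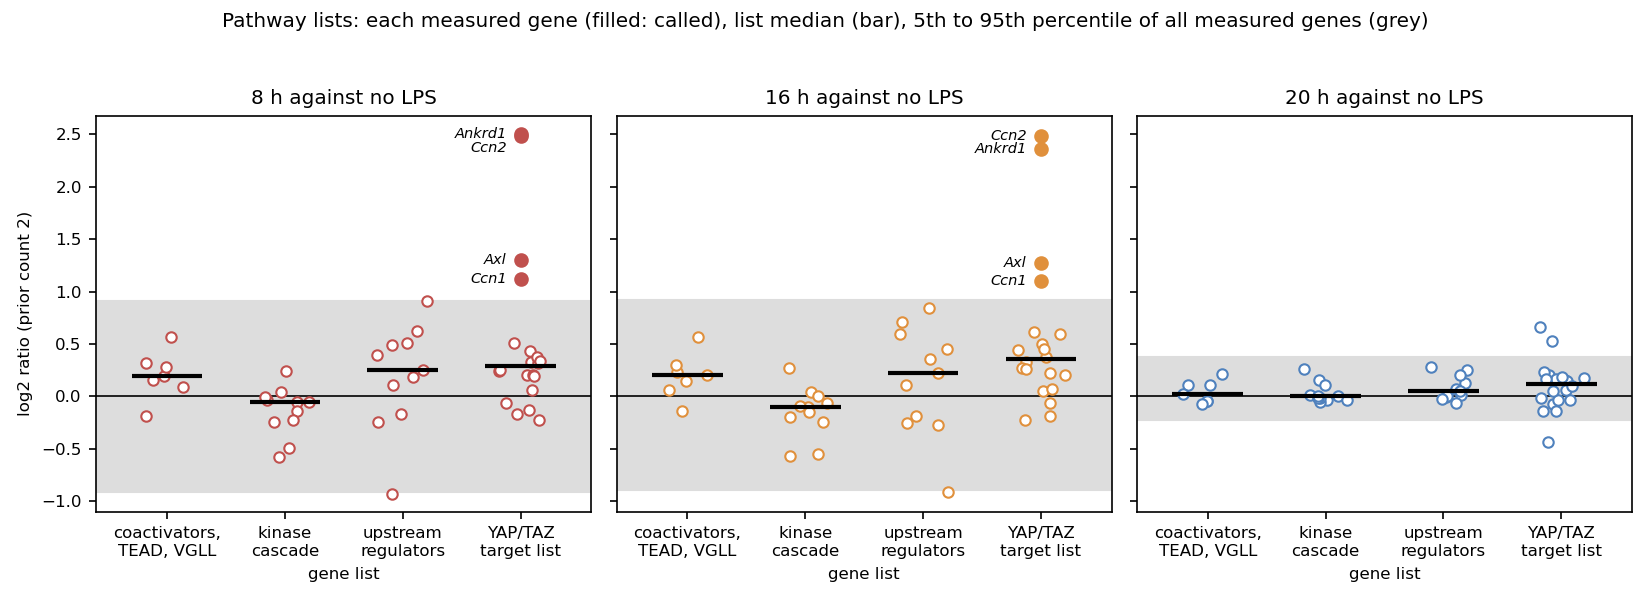
Log2 ratio against no LPS of each measured gene in 4 pathway lists (columns of points) at 8 h, 16 h and 20 h; filled points met the rule of size and are named, bars are list medians, the grey band spans the 5th to the 95th percentile of all measured genes and the thin line is their median. Only Ccn2, Ankrd1, Axl and Ccn1 are filled, at 8 h and 16 h, and they lie above the band; the points of Ankrd1 and Ccn2 coincide at 8 h.

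Genes with the pattern most like that of the 3 called members were sought among 8376 protein-coding genes of at least 10 CPM on average. Genes on chromosome 18 and genes with model or clone names were left out of these 8376. Likeness was the Euclidean distance between the 3 log2 ratios against no LPS, over 4 libraries. For Ccn1 the nearest were Hsdl2 at a distance of 0.02, Col5a1 at 0.03 and Card19 at 0.03, and 81 genes lay within 0.25. Col5a1, which encodes a fibrillar collagen chain, had 74.9 CPM with no LPS, 163 CPM at 8 h, 163 CPM at 16 h and 83.6 CPM at 20 h. Few genes came near Ankrd1 or Ccn2. The distances take no account of counting error, which was wide for Ccn2, with a fold interval of 4.03 to 8.83 at 8 h. Ccn2 averaged 4.03 CPM, below the minimum set for the candidates. For Ankrd1 the nearest were Inpp4b, a phosphoinositide phosphatase gene, at 0.21, the thymidine kinase gene Tk1 at 0.33 and Atp8b4 at 0.35, with 1 gene within 0.25. For Ccn2 the nearest gene was Ankrd1, at 0.48, followed by Atp8b4 at 0.49 and the transcription regulator gene Id3 at 0.51, with 0 genes within 0.25.

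Some cell type markers differed between the same libraries, in both directions, and others did not. In the epithelial list 3 of 10 genes were measured, and its summed level was 56.0 CPM with no LPS, 127 CPM at 8 h, 131 CPM at 16 h and 55.9 CPM at 20 h. Krt8 at 2.48-fold and Krt18 at 2.38-fold made the difference at 8 h. Hopx, the remaining measured gene, had a fold of 0.822 at 8 h (0.629 to 1.07) and 1.15 at 16 h (0.898 to 1.47). Sftpb and Nkx2-1 had 0 reads in all 4 libraries and Epcam had at most 3. The endothelial list summed to 15.9 CPM with no LPS and to 32.7, 33.5 and 16.0 CPM at 8, 16 and 20 h, most of it Flt1. The leukocyte list, with 6 of 10 measured, summed to 125, 92.6, 92.0 and 126 CPM in that order, the opposite division. Most of it was Cd68, at 99.7, 66.5, 62.0 and 96.6 CPM in the same order. Lyz2, at 21.5, 23.0, 24.5 and 25.6 CPM, did not share that division. Within the list Adgre1 was 2.54-fold higher at 8 h (1.27 to 5.44) on 31 against 12 reads. At 16 h Adgre1 was 6.55-fold higher (3.54 to 13.2) on 77 against 12. Csf1r was 3.40-fold higher at 16 h (1.57 to 8.14) on 30 against 9 reads. S100a8 was lower, with folds of 0.174 at 8 h (0.0596 to 0.419) and 0.210 at 16 h (0.0786 to 0.481), on 6 and 7 reads against 34. Cd3e and Nkg7 had 0 reads in every library. The fibroblast and mesenchymal list, with 6 of 12 measured, summed to 2815 CPM with no LPS and to 3125, 3246 and 3007 CPM at 8, 16 and 20 h, most of it Vim. Within it Col3a1 was lower, with folds of 0.488 at 8 h and 0.497 at 16 h, as was Dcn, with 0.312 and 0.362. The other measured genes of this list met the rule of size at neither time. Vim had folds of 1.17 at 8 h and 1.22 at 16 h, Twist1 1.12 and 1.16, Prrx1 0.995 and 1.02, and Pdgfra 0.920 and 1.01. The smooth muscle and pericyte list, with 2 of 8 measured, summed to between 6.37 and 9.13 CPM, and the mesothelial list, with 2 of 5 measured, to between 4.78 and 7.00 CPM. The part of other cells in the levels of Ccn1, Ccn2 and Ankrd1 was not tested.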

How the data were processed

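Polyadenylated RNA was measured in 4 libraries. The deposited table holds raw read counts per gene, made by the authors on mm10; the submitters' processing notes name STAR and featureCounts. Versions, annotation, strand handling and the treatment of shared reads are not stated in these sources. Columns were matched to samples by title, and groups follow the treatment label.

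Symbols, coordinates, exon lengths and transcript GC content came from GENCODE M21 (GRCm38), matched by stable identifier for 38872 of 39056 genes (99.5%), and promoter sequences from RefSeq (GRCm38.p6). Counts were scaled with TMM factors (edgeR 4.0.16, R 4.3.3). Folds carry the exact conditional binomial (Clopper-Pearson) 95% interval, computed with scipy 1.17.1, and log2 ratios used a prior count of 2. With 1 library per label no pair was tested, and the rule of size was run on all genes; 11803 genes that reached 1 CPM somewhere form the background. Totals of 27566454 to 28905776 reads put the floor of 3 reads at 0.104 to 0.108 CPM. The trend over hours used glmQLFit and glmQLFTest with Benjamini-Hochberg adjustment.

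All 10 members are named. From the pathway lists, called genes and the 3 most abundant uncalled genes of each list were named; in the target list these include Ptpn14 and in the first list Tead1, Yap1 and Wwtr1. The members and lists were chosen with earlier results of these data known. Alternatives were other scalings (library totals, DESeq2 1.42.0 size factors, upper quartile), prior counts of 0.5 and 10, no CPM minimum or 10 CPM, folds of 1.5 and 4, and a GC correction in 20 bins; for the trend also DESeq2, other filters and each library left out.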

Additional observations from a re-analysis of the deposited data

How the results depend on the processing

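The calls of the 10 genes were the same under the 3 other scalings and the GC correction. The other prior counts and the removal of the CPM minimum could not change a call. The prior count does not enter the rule of size, and all 10 members were above 1 CPM in every library, the lowest being Ccn2 at 1.13 CPM. With a fold of 1.5, 4 members were called at 8 h against no LPS, as Ajuba joined. At 16 h 5 were called, as Ajuba and Amotl2 joined, and Ccn1 was lower at 20 h against 16 h. With a minimum of 10 CPM Ccn2, at 6.68 CPM or less, was no longer called in any comparison. That left 2 members called at 8 h and 2 at 16 h against no LPS and 1 at 20 h against 16 h. With a fold of 4, Ccn1 was no longer called at 8 h or 16 h. Of 300 log2 ratios of single members under the alternatives that can move them (scalings, prior counts and the GC correction), 299 stayed within their counting interval and 0 reversed; the exception was Tead1 at 20 h against 16 h under the GC correction, -0.07 in place of -0.11. The trend called 0 members under every alternative, with each library left out included. No paired analysis was possible because each label has 1 library. Counting depth limits Ccn2 most, with 32 reads in the library labelled no LPS.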
